A study of Homo sapiens with 6 samples.

Results

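RNA polymerase II and the factors that start, pause and elongate its transcripts were followed in U2OS cells silenced for CCAR2. The group was defined by function and not by a cut on measured values, but it was chosen with earlier results of these data known. It holds 42 genes in 8 subgroups, namely polymerase subunits, general initiation factors, pausing factors, P-TEFb and the kinases of the polymerase tail, the super elongation complex, TFIIS and elongin, the PAF1 complex, and FACT with SPT6. Of these, 40 had a probe that carried their symbol alone, and 39 were detected and tested, among 12013 genes tested of 20046 with such a probe. NELFE and CCNK had no probe of that kind in the annotation used here. The probe of CDC73, the parafibromin subunit of the PAF1 complex, was not detected in any array, with a lowest detection p-value of 0.118. U2OS is a human osteosarcoma cell line. The cells had received either control siRNA (siCTRL in the labels, siLUC in the methods) or a pool of 4 siRNAs against CCAR2 (siCCAR2), and RNA was taken 6 days later, in 3 independently prepared samples per condition. Both conditions were transfected, and no untransfected cells were analysed. Each RNA was hybridized to 1 section of a Human HT12_v4 bead array, named here A, B and C for siCTRL and D, E and F for siCCAR2.

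RNA polymerase II makes the messenger RNA of genes in the nucleus. After initiation it pauses close to the start site under the hold of DSIF and NELF, and the kinase P-TEFb releases it by phosphorylating these factors and the long carboxy-terminal tail of the largest subunit. Elongation factors then travel with it, keep it moving, restart it when it stalls and open and rebuild the nucleosomes in its path. CCAR2 belongs to the DBIRD complex, which binds polymerase II and messenger ribonucleoprotein particles and has been described as coupling elongation to splicing. The comparison measured RNA amounts of the genes of this machinery. Elongation, splicing and protein were not measured.

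All 6 arrays lay on 1 chip, siCTRL in the sections before siCCAR2, and an effect of place on the chip cannot be told apart from silencing. Between 37.2% and 41.0% of the 47321 probes were detected per array, at a detection p-value under 0.01, and the median bead signal lay between 105.931 in array F and 123.352 in array E. CCAR2 itself had normalized log2 signals of 11.43, 11.34 and 11.01 in siCTRL and 9.88, 9.96 and 9.91 in siCCAR2. It fell by 1.34 on the log2 scale (SE 0.15, 2.53-fold lower), with a limma adjusted p of 0.0394 and no overlap between the groups. The fall had the same direction without any 1 array, from -1.47 to -1.26. Its adjusted p in limma was 0.0417 without array B, and missed the threshold at 0.334, 0.0893, 0.266, 0.198 and 0.411 without A, C, D, E and F. Of 9 markers of the osteoblast lineage, 5 were detected in all 6 arrays (RUNX2, COL1A1, SPARC, ALPL and SPP1) and 3 in none (SP7, COL1A2 and IBSP). SPARC, a matrix glycoprotein gene, was 1 of the 3 genes called, with 11.76, 11.64 and 12.20 in siCTRL and 10.38, 9.95 and 10.15 in siCCAR2, and it fell by 1.71 on the log2 scale (3.26-fold lower, adjusted p in limma 0.0394). No gene was called without A, C, D, E or F, SPARC included. Of the epithelial markers, EPCAM was detected in 6 arrays, KRT14 in 4 and CDH1 and KRT19 in 0. The endothelial VWF was detected in 5 arrays, PECAM1 in 1 and CDH5 in 0, and the leukocyte CD14 in 1 and PTPRC and CD3E in 0. The part of these markers in the members' values was not tested. On such bulk RNA, fewer cells of a type and less RNA per cell cannot be told apart.

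None of the 39 tested members differed between siCCAR2 and siCTRL by the threshold used, a fold change of at least 1.5 with an adjusted p of at most 0.05. That threshold called 3 of all 12013 genes (0.025%), and 200 (1.66%) in the paired fit given below. The study, after another normalization, reports far more genes than this unpaired fit at a fold change above 1.5. The lowest adjusted p of a member in limma was 0.768, and without the fold threshold the count was still 0. At an unadjusted p under 0.05, which 6.49% of all genes reached, there was 1 member, TCEA1, with a lower signal in siCCAR2, against 3.01% of all genes lower and 3.49% higher. The members were divided evenly about 0, with 20 log2 fold changes above it and 19 below, and their median was 0.01, against a median of 0.004 over all genes with 50.9% above 0. With the arrays only scaled to a common median, under which the median over all genes was -0.10, 12 of 39 members lay above 0 and their median was -0.12. The median absolute log2 fold change was 0.132 for the members and 0.132 for all genes. The members ranged from -0.38 (TCEA1) to 0.38 (ELL2), each 1.30-fold, and 4 of 39 (10.3%) exceeded 1.2-fold, against 19.7% of all genes. When the arrays were paired in chip order (A-D, B-E, C-F), which no label states, 0 of 39 members were again called, against 1.66% of all genes, with a lowest adjusted p in limma of 0.126 for ELL2. In these pairs 3 members reached an unadjusted p under 0.05 with higher signals, POLR2F, GTF2F1 and ELL2, against 9.09% of all genes, and 1 with a lower signal, TCEA1, against 8.18%.

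The intervals of these differences bound what the 6 arrays allow. The 95% interval of the log2 fold change from limma lay wholly within 1.5-fold in either direction (0.585 on the log2 scale) for 28 of 39 members (71.8%), compared with 65.2% of all genes. The median SE was 0.153 for the members and 0.16 for all genes. For the other 11 members the interval reached 1.5-fold or beyond in at least 1 direction, so a difference of that size was not excluded by these arrays. With the pairs of the chip order the median SE was 0.126, and the intervals of 36 of 39 members (92.3%) and of 85.0% of all genes lay within 1.5-fold. The members were brighter than the genes at large, with a median log2 signal of 10.01 against 9.07. Of the members 37 of 39 were detected in all 6 arrays, against 10132 of all 12013 genes. The part of signal level in these shares was not tested.

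**Figure D1:**
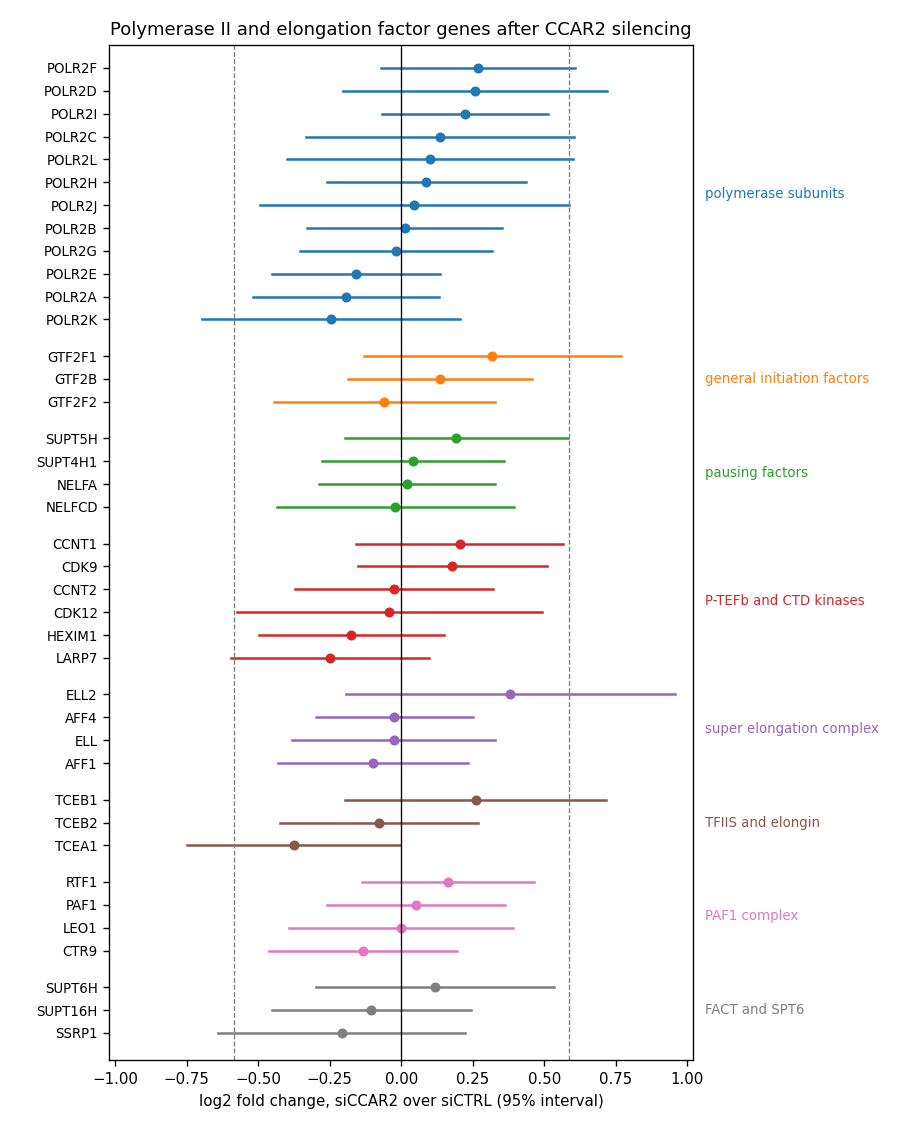
Log2 fold change (siCCAR2 minus siCTRL) of the 39 tested members by subgroup, with points for the limma estimate, bars for its 95% interval and dashed lines at 1.5-fold. The estimates scatter on both sides of 0 between -0.38 and 0.38, and 28 of the 39 intervals lie inside the dashed lines.

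All 12 polymerase II subunits were detected, 8 with a log2 fold change above 0 and 4 below, and a median of 0.07 (3 above 0 and -0.046 under median scaling). POLR2I, a subunit of polymerase II alone that sits near its jaw, had log2 signals of 11.74, 11.93 and 11.75 in siCTRL and 12.02, 12.06 and 12.01 in siCCAR2. All 3 siCCAR2 values lay above all 3 siCTRL values, and the difference of 0.22 (SE 0.13, 1.17-fold) was larger than the range within either group, 0.19 and 0.05. Its adjusted p in limma was 0.812, and the exact two-sided permutation p was 0.1, the smallest that 3 against 3 arrays can give. POLR2I was the 1 member whose siCCAR2 arrays all lay above its siCTRL arrays, a pattern seen in 6.35% of all genes. The reverse pattern, seen in 5.68%, occurred in POLR2E, a small subunit shared by polymerases I, II and III, so that 2 of 39 members did not overlap, against 12% of all genes. POLR2E measured 8.01, 8.03 and 8.02 in siCTRL and 7.996, 7.85 and 7.75 in siCCAR2. Array D lay only just below the lowest siCTRL array, and the difference of -0.16 (SE 0.13, adjusted p in limma 0.848) was smaller than the spread among the siCCAR2 arrays.

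POLR2F, another subunit common to the 3 polymerases, gave 13.00, 13.37 and 13.04 in siCTRL and 13.28, 13.48 and 13.45 in siCCAR2. Array B of the controls reached above array D, and the log2 fold change was 0.27 (SE 0.15, adjusted p in limma 0.806). The largest subunit, POLR2A, which holds part of the active centre and carries the phosphorylated tail, had a log2 fold change of -0.19 with a 95% interval of -0.52 to 0.13. The second largest, POLR2B, which forms the other side of the active centre, was at 0.01 with an interval of -0.33 to 0.35. POLR2C (0.14), which anchors assembly of the core, and POLR2D (0.26) and POLR2G (-0.02), which form the stalk, overlapped between the groups. So did the shared subunits POLR2H (0.09), POLR2K (-0.25) and POLR2L (0.10) and the assembly subunit POLR2J (0.04). The value of POLR2K rested on array C, at 8.47 where the other arrays had 7.72 to 7.81, and it was -0.013 without that array. POLR2J has near-identical copies in the genome, and its probe may also read them. The 5 shared subunits had a median of 0.09 and the 7 specific to polymerase II a median of 0.04. The median of the 12 subunits was 0.21 without array B and -0.05 without array E.

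**Figure D2:**
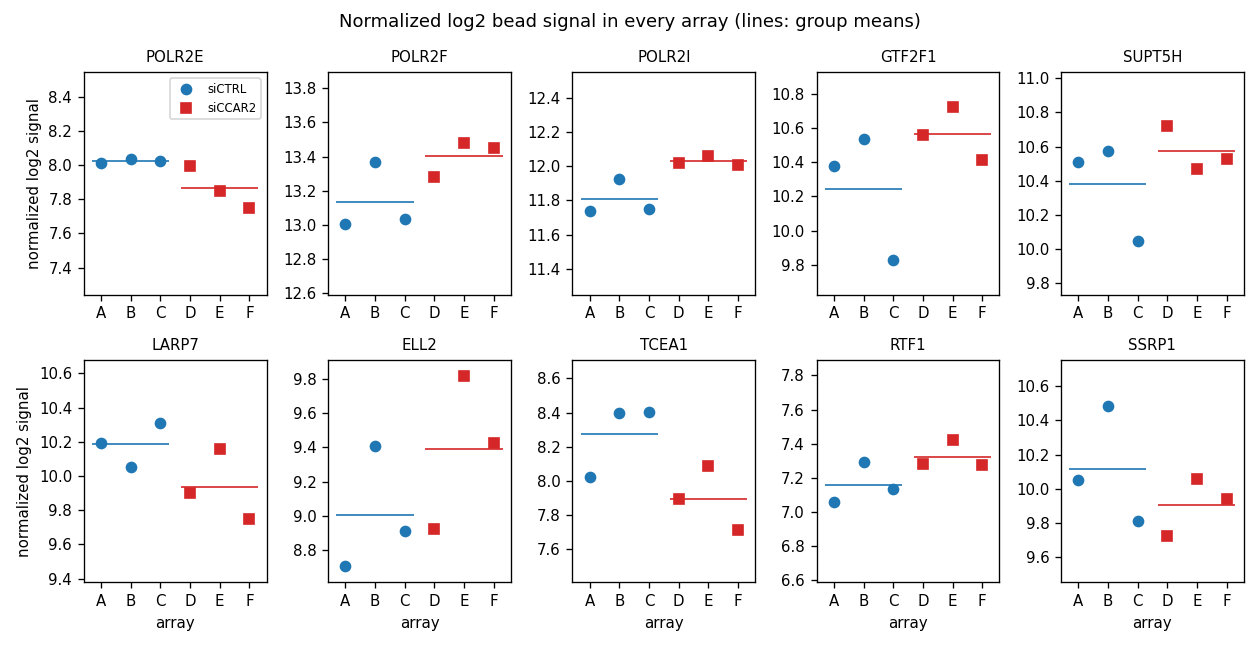
Normalized log2 bead signal of 10 members in each array, siCTRL A to C and siCCAR2 D to F, with points for single arrays and horizontal lines at the group means. Only POLR2I and POLR2E have groups that do not overlap, and in POLR2E array D comes close to the controls at 7.996.

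The 3 general initiation factors had a median log2 fold change of 0.14. GTF2F1 encodes the large subunit of TFIIF, which brings the polymerase to the promoter and also aids early elongation. It measured 10.38, 10.54 and 9.83 in siCTRL and 10.56, 10.73 and 10.41 in siCCAR2. Array C, low among the controls, set most of the siCTRL spread (SD 0.37), and arrays A and B lay within or close to the siCCAR2 range. The difference was 0.32 (SE 0.20, 1.25-fold, adjusted p in limma 0.824), and it was 0.11 without array C. GTF2F2, the small subunit of TFIIF, was at -0.06, so the subunits of this heterodimer had point estimates on opposite sides of 0. GTF2B, the factor that bridges polymerase and TATA-binding protein, was at 0.14.

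The starts of 3 of these genes are shown because POLR2E had non-overlapping groups and POLR2F and GTF2F1 had the largest estimates above 0 in their subgroups. The 110 bases before each start are given 5′ to 3′ on the gene's strand, from RefSeq on GRCh38.p14. They lie at chr19:1095376-1095485 on the minus strand for POLR2E, chr22:37953589-37953698 on the plus strand for POLR2F and chr19:6393165-6393274 on the minus strand for GTF2F1. Capitals mark the NRF1 motif GCGCATGCG, which overlaps its own reverse complement by all but its first base, and the ETS core CCGGAAG or its reverse complement CTTCCGG. In POLR2F these begin 75 and 41 bases before the start, in GTF2F1 the ETS core begins 48 bases before it, and POLR2E has no such match.
POLR2E: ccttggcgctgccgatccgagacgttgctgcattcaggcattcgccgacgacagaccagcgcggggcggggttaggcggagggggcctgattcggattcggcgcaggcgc
POLR2F: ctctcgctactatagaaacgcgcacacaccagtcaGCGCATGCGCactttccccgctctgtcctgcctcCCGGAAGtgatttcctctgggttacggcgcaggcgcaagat
GTF2F1: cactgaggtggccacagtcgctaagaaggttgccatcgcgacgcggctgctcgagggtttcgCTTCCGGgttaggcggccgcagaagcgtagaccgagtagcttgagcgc

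The promoters of the group were rich in GC and CpG, as were those of the tested genes at large. Windows of 300 bases, from 250 before to 50 after the start, were found for 34 of the 42 members (not POLR2G, POLR2I, POLR2J, POLR2K, ELL2, TCEA1, TCEB1 and CDC73). Their median GC content was 62.8%, against 65% for 9629 tested genes, and the median ratio of observed to expected CpG was 0.98 against 0.837. The ETS core CCGGAAG, searched on both strands, was in 12 of 34 (35.3%) and in 18.9% of the tested genes. The 12 were found in 6 of the 8 subgroups. The other subgroups had few windows, those of ELL, AFF1 and AFF4 for the super elongation complex and of TCEB2 alone for TFIIS and elongin. The 12 with the ETS core were POLR2C, POLR2D, POLR2F, SUPT4H1, NELFA, NELFE, CDK9, CCNT1, GTF2F1, CTR9, SUPT16H and SSRP1. The NRF1 motif GCGCATGCG was in 5 (14.7%), namely POLR2F, NELFCD, CCNT2, HEXIM1 and RTF1, and in 3.73% of the tested genes. TATAAA was in 2 members (5.88% against 5.75%), CCAAT in 8 (23.5% against 37.1%), the YY1 motif AAGATGGCG in 3 (8.82% against 3.85%) and the ZNF143 motif ACTACAATT in 0 (against 0.654%). All 6 motifs were searched on both strands, and no member window had overlapping matches of different motifs. These are matches of letters, and no binding was measured.

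Of the pausing factors, 4 of 5 were tested, with a median log2 fold change of 0.03 and all 4 intervals inside 1.5-fold. SUPT5H is the large subunit of DSIF, which holds the paused polymerase and, once phosphorylated, travels with it. Its log2 signals were 10.51, 10.58 and 10.05 in siCTRL and 10.72, 10.47 and 10.53 in siCCAR2. Array C was again the low control, the groups overlapped, and the difference was 0.19 (SE 0.17, adjusted p in limma 0.854). Without array C it was 0.03. SUPT4H1, the small subunit of DSIF, was at 0.04, and the NELF subunits NELFCD and NELFA were at -0.02 and 0.02. Array B held the highest NELFCD value of the 6, 12.30, where the other controls had 11.77 and 11.64.

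P-TEFb and the other kinases of the polymerase tail gave 2 log2 fold changes above 0 and 4 below among 6 tested genes, with a median of -0.03. The kinase CDK9 was at 0.18 (interval -0.15 to 0.51) and its main cyclin partner CCNT1 at 0.20 (-0.16 to 0.57), while CCNT2, the alternative cyclin, was at -0.02. LARP7, which binds and stabilizes 7SK RNA in the particle that holds P-TEFb inactive, measured 10.19, 10.05 and 10.31 in siCTRL and 9.90, 10.15 and 9.75 in siCCAR2. Arrays D and F lay below all controls and array E among them, for a difference of -0.25 (SE 0.15, adjusted p in limma 0.824). HEXIM1, the inhibitor in that particle, was at -0.17 (interval -0.50 to 0.15), and its probe was near background, detected in 3 siCTRL arrays and 2 siCCAR2 arrays. Outside the group, the related inhibitor HEXIM2 was at 0.11 and MEPCE, which caps 7SK RNA, at -0.12. CDK12, which phosphorylates the tail during elongation, was at -0.04, with controls that spanned 0.86 from 7.90 to 8.76. The median of this subgroup was -0.16 without array E.

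The super elongation complex joins P-TEFb to ELL proteins on an AFF scaffold. ELL2, which raises the elongation rate of the polymerase, had the largest estimate above 0 of all members. Its log2 signals were 8.71, 9.41 and 8.91 in siCTRL and 8.92, 9.81 and 9.43 in siCCAR2. Arrays B and E were the highest of their groups, both groups spread widely (SD 0.36 and 0.45), and they overlapped. The difference was 0.38 (SE 0.25, 1.30-fold) with a 95% interval of -0.19 to 0.96, the highest upper bound of the group, and an adjusted p in limma of 0.832. It was 0.17 without array E and 0.62 without array D. Paired in chip order, which no label states, ELL2 differed by 0.22 (A-D), 0.41 (B-E) and 0.52 (C-F). The SE in these pairs was 0.125 and the adjusted p in limma 0.126. ELL, a relative of ELL2, was at -0.03. The scaffold AFF4 measured 10.35, 10.32 and 10.38 in siCTRL and 10.31, 10.35 and 10.31 in siCCAR2, for a difference of -0.02 (interval -0.30 to 0.25). All 6 values of AFF4 lay close together, with an SD of 0.03 and 0.02. AFF1, the other scaffold, was at -0.10.

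TFIIS and elongin both act on stalled or pausing polymerase, TFIIS by stimulating cleavage of the transcript and elongin by raising the elongation rate. TCEA1 encodes the common form of TFIIS, and its probe gave 8.02, 8.40 and 8.40 in siCTRL and 7.89, 8.09 and 7.71 in siCCAR2. Arrays D and F lay below all controls, but array E exceeded array A. The difference was -0.38 (SE 0.16, 1.30-fold lower), with an unadjusted p of 0.0479 and an adjusted p of 0.768 in limma, and an exact permutation p of 0.2. That value belonged to 1 of its 3 probes. The other probes of TCEA1 differed by -0.26 and by 0.01. TCEB1 (elongin C, listed in the annotation as ELOC) was at 0.26 and TCEB2 (elongin B, listed as ELOB) at -0.08. Both also serve in ubiquitin ligases.

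More than 1 probe was detected for 10 members, and these probes agreed in sign for 5 of them (AFF1, CTR9, LARP7, LEO1 and POLR2C) and not for the other 5 (CCNT1, CCNT2, TCEA1, TCEB1 and TCEB2). For LARP7 the second probe differed by only -0.01 where the first had -0.25. POLR2C had 0.14 and 0.28, CTR9 -0.13 and -0.21, and AFF1 -0.10 and -0.08. CCNT1, with 3 probes, had 0.20, 0.03 and -0.02. TCEB1 had 0.26 and -0.03 on its probes. When each of the 16021 detected probes was tested alone, 3 were called (0.0187%) and none belonged to the group.

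**Figure D3:**
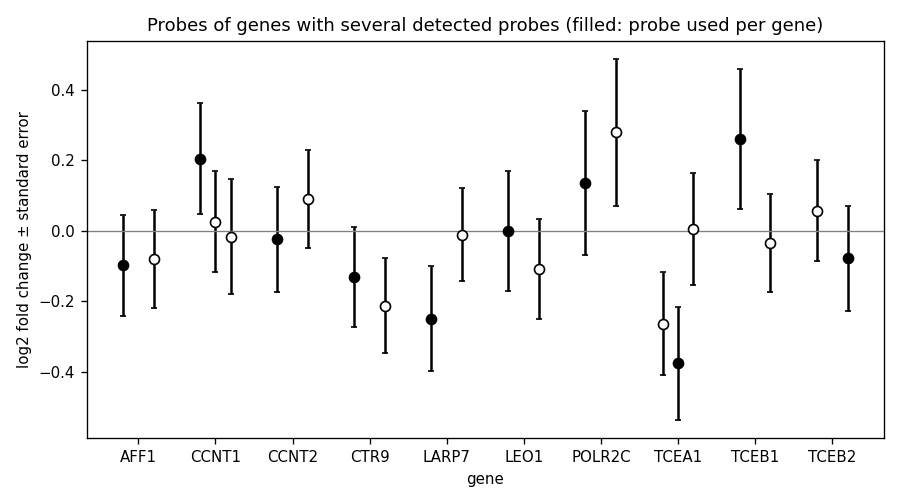
Log2 fold change (siCCAR2 minus siCTRL) of each detected probe of the 10 members that have several, with bars for the SE from limma and filled points for the probe used in the comparison. The used probe of TCEA1 is at -0.38 and another probe of the same gene at 0.01.

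The PAF1 complex rides with the polymerase and supports histone modification along genes. Its 4 tested subunits divided evenly, with a median of 0.03 and all 4 intervals inside 1.5-fold. Under median scaling 1 of the 4 lay above 0 and the median was -0.11. RTF1 measured 7.06, 7.29 and 7.13 in siCTRL and 7.28, 7.42 and 7.27 in siCCAR2. Array B exceeded arrays D and F, and the difference was 0.16 (SE 0.13, adjusted p in limma 0.848). Its probe was detected in 1 siCTRL array and 3 siCCAR2 arrays, so the values were at the limit of detection. The scaffold subunits PAF1 and CTR9 were at 0.05 and -0.13. LEO1, which pairs with PAF1, was at -0.00078 with an interval of -0.39 to 0.39.

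FACT, a histone chaperone of the subunits SUPT16H and SSRP1, and SPT6, encoded by SUPT6H, take nucleosomes apart and restore them as the polymerase passes. SSRP1 gave 10.05, 10.48 and 9.81 in siCTRL and 9.72, 10.06 and 9.94 in siCCAR2. The siCCAR2 values lay within or just below the range of the controls, and the difference was -0.21 (SE 0.19, adjusted p in limma 0.857). It was -0.02 when array B was left out. SUPT16H was at -0.10 and SUPT6H at 0.12, and the median of the 3 genes was -0.10.

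The spread among arrays of 1 condition was seldom smaller than the difference between conditions. The difference exceeded both within-group ranges in 1 of 39 members (2.56%), POLR2I, and in 6.43% of all genes. The spread had a common part. Array B held the highest siCTRL value in 22 of 39 members (56.4%, against 37.7% of all genes), and array E the highest siCCAR2 value in 26 (66.7%, against 36.7%). Array C held the lowest siCTRL value in 19 members (48.7%, against 32.8%), and array F the lowest siCCAR2 value in 17 (43.6%, against 29.0%). Relative to each gene's siCTRL mean, the median member was at -0.06, 0.13 and -0.10 in arrays A, B and C and at -0.06, 0.10 and -0.02 in D, E and F. Array E also had the highest median bead signal of the 6 arrays before normalization, while array B, at 110.91, did not stand apart by that measure. Array B had the lowest share of detected probes (37.2%) and array C the highest (41.0%). The part of these array differences in the members' values was not tested.

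**Figure D4:**
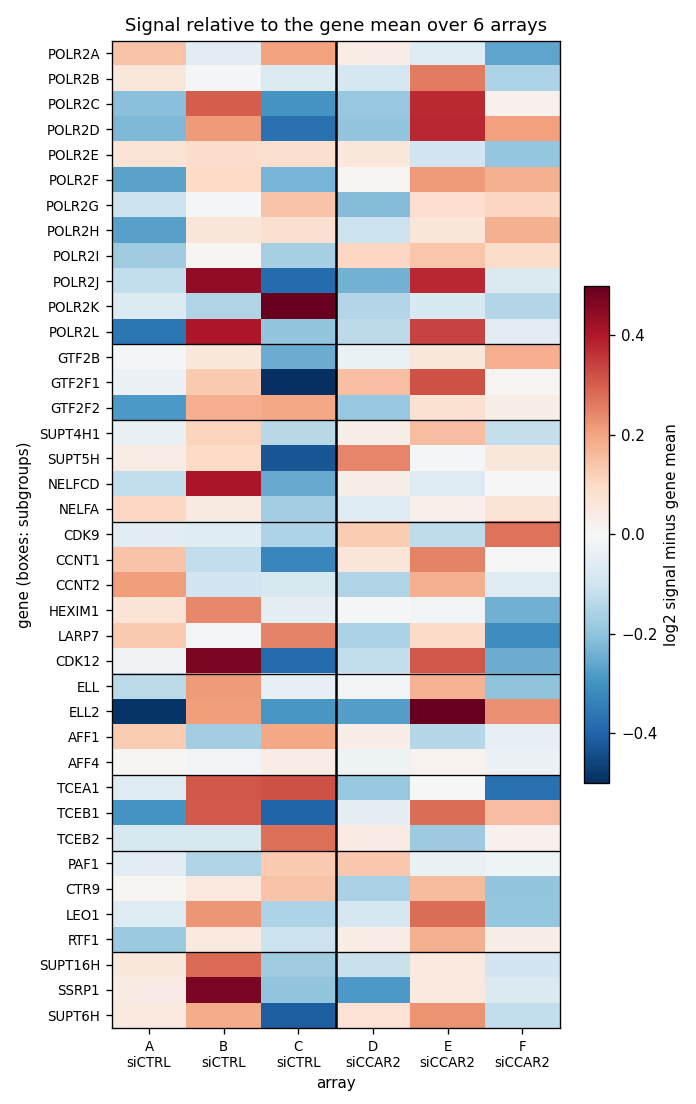
Normalized log2 signal of the 39 tested members in the 6 arrays, each gene shown as its difference from its own mean over the arrays and ordered by subgroup. Arrays B and E are the high columns, with the highest value of their condition in 22 and 26 members.

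Genes of the same machinery outside the group were also measured, and none was called. Of 15 other initiation factors, 10 lay above 0, with a median of 0.05 (6 and -0.083 under median scaling). GTF2H4, a subunit of TFIIH, which opens the promoter, measured 10.20, 10.07 and 9.95 in siCTRL and 10.38, 10.61 and 10.68 in siCCAR2. The groups did not overlap, at a difference of 0.48 (SE 0.14, adjusted p in limma 0.767). CCNH, the cyclin of the kinase module of TFIIH, did not overlap either, with 8.91, 8.91 and 8.70 against 9.18, 9.38 and 9.05, a difference of 0.36 (SE 0.14, adjusted p in limma 0.767). The probe of CCNH with the highest mean signal gave 0.027. These 2 of the 15 had an unadjusted p under 0.05, which 6.49% of all genes reached. ERCC2, a TFIIH helicase, was also higher without overlap (0.23), and MNAT1, which assembles the TFIIH kinase, was lower without overlap (-0.27), so that 4 of 15 did not overlap, against 12% of all genes.

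Among 17 other elongation factors 8 lay above 0 and 9 below, with a median of -0.01 (4 above 0 and -0.15 under median scaling) and 0 with an unadjusted p under 0.05. The smallest p-values belonged to SSU72, a phosphatase of the polymerase tail (0.28, SE 0.13, adjusted p in limma 0.773), and CDK13, a tail kinase (0.20, SE 0.14). ZNF326, the partner of CCAR2 in the DBIRD complex, is named for that tie and not by its p-value. It measured 8.34, 8.54 and 7.88 in siCTRL and 8.15, 8.55 and 7.83 in siCCAR2. The groups overlapped almost fully, with a difference of -0.08 (SE 0.23, 95% interval -0.59 to 0.43).

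Mediator, which links activators to the polymerase, had 15 of 27 tested subunits above 0 and a median of 0.03 (10 and -0.082 under median scaling). At an unadjusted p under 0.05, 3 subunits were higher, against 3.49% of all genes, and 0 lower. Without overlap, 2 subunits were higher and 5 lower (MED4, MED9, MED18, MED21 and MED31, from -0.25 to -0.16), against 6.35% and 5.68% of all genes. MED18 was detected in 2 siCTRL arrays and 0 siCCAR2 arrays. It therefore passed the detection filter only through the group where it was higher. MED27 and MED8 had the smallest p-values, with differences of 0.41 (SE 0.17) and 0.45 (SE 0.18), each with an adjusted p in limma of 0.767. Integrator, which cleaves nascent RNA at paused polymerase, had 6 of 12 above 0 and a median of -0.03 (2 and -0.15 under median scaling). INTS8 was at -0.43 (SE 0.20) and INTS5 at 0.21 (SE 0.15). Array C had INTS8 at 10.24 where the controls A and B had 9.61 and 9.46. The INTS8 difference ran from -0.59 to -0.20 when each array was left out. Without overlap, 2 Integrator genes were higher and 1 lower (INTS8), against 6.35% and 5.68% of all genes.

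The subunits of polymerases I and III that polymerase II does not use differed from this even division. All 17 tested lay above 0, with a median of 0.16, where the 12 polymerase II subunits had 8 above 0 and a median of 0.07. None of the 17 was called, 1 had an unadjusted p under 0.05, and 6 of the 17 intervals lay inside 1.5-fold. That gene was POLR1D, a small subunit shared by polymerases I and III, with 7.66, 7.96 and 8.16 in siCTRL and 8.21, 8.43 and 8.49 in siCCAR2. Its difference was 0.45 (SE 0.16, adjusted p in limma 0.767), but the probe of POLR1D with the highest mean signal gave -0.25. POLR1E, a polymerase I subunit, was at 0.37 (SE 0.24). The median was 0.064 without array E, 0.35 without array B and 0.032 under median scaling. The count of 17 was not stable either. It was 14, 13 and 10 without arrays A, C and E, and 12 of 17 when the arrays were only scaled to a common median. Genes of 1 complex share arrays, so the 17 values are not independent, and the difference between the lists was not tested.

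**Figure D5:**
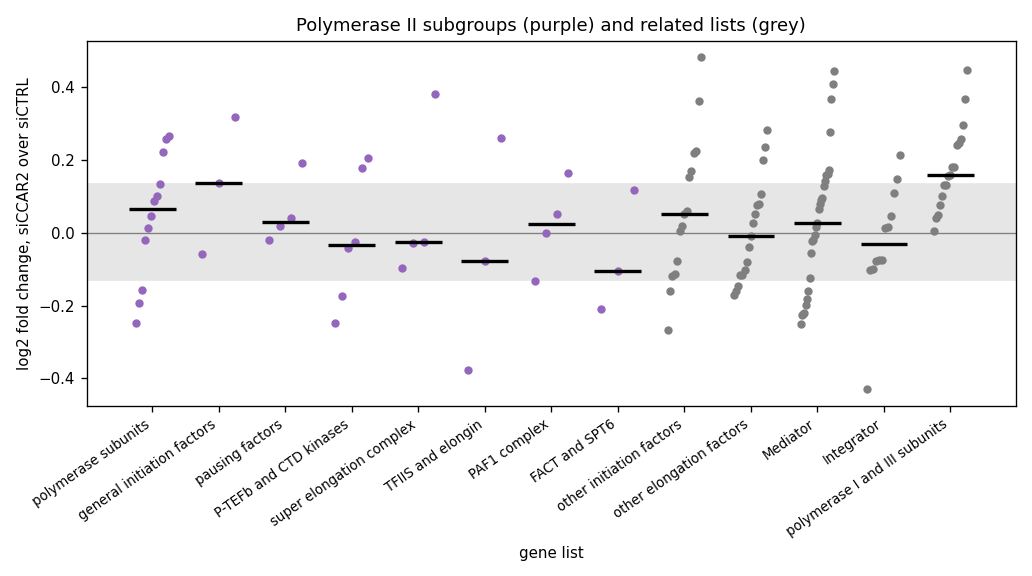
Log2 fold change (siCCAR2 minus siCTRL) of each tested gene in the 8 subgroups (purple) and the 5 related lists (grey), with bars at the list medians and a grey band for the quartiles of all 12013 genes. Medians of the subgroups lie between -0.10 and 0.14, and the subunits of polymerases I and III have a median of 0.16 with all 17 points above 0.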

How the data were processed

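Total RNA of U2OS cells was measured on 6 bead arrays, 3 per condition. The authors deposited non-normalized bead signals per probe, a linear intensity, beside a detection p-value against negative control beads, and a second table of normalized intensity, used as an alternative. How that table was normalized is not stated, but its columns shared their sorted values to within 0.00672 (relative), as quantile normalization leaves them. The labels name BeadStudio 3.8 and the methods GenomeStudio for the signals. The labels also name an FFPE RNeasy kit and a microRNA labelling guide, whereas the methods name Qiazol and the TotalPrep kit. The robust spline normalization of the methods was not run.

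The non-normalized signals were taken to log2 and quantile normalized with no background correction. Of 47321 probes, 30112 carried 1 symbol and were used, 8 carried several and 17201 none. Of the gene identifiers, 39 were not found, and 0 symbols needed an update. A probe was kept if any array had a detection p-value under 0.01 (20857, of which 16021 with 1 symbol), and each gene took the probe detected in most arrays, then that with the widest interquartile range. Conditions were compared by the moderated linear model of limma 3.58.1 (R 4.3.3), unpaired, with Benjamini-Hochberg adjustment over 12013 genes. Permutation tests were exact and two-sided over all regroupings of the 6 arrays. Python 3.11.15 with matplotlib 3.10.9 drew the figures. The scripts were tested on simulated data. With 3 arrays per condition, their number limits the precision.

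The members, subgroups and related lists were chosen with earlier results of these data known. Every member is named. Values per array are given for members with an unadjusted p under 0.05, with groups that do not overlap or with the smallest p of their subgroup, and each related list is represented by the 2 genes of smallest p. Named outside this rule, after the values were seen, were ZNF326, SPARC, HEXIM2, MEPCE, ERCC2, MNAT1, the Mediator subunits without overlap, all array values of AFF4 and those given for single arrays of other members. Promoter windows are those of RefSeq on GRCh38.p14, and motifs were searched as exact letters. The columns of other samples numbered 0. Alternatives were the deposited table, neqc with an offset of 16, cyclic loess, median scaling, a detection filter of 3 arrays or none, choosing the brightest probe of a gene, every probe, trended and robust variance estimation, array weights, no fold threshold, pairings of arrays as a block, and leaving out each array. The medians of the related lists and the count of polymerase I and III subunits above 0 were added to them after the data had been seen.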

Additional observations from a re-analysis of the deposited data

How the results depend on the processing

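No alternative called a member, and leaving out each array gave 0 to 0 members called. The limits are those of 3 arrays per condition and of bead signals near background for RTF1 and HEXIM1. Over all genes, the count of 3 became 0 with neqc, median scaling and the probe of highest mean signal (here the brightest probe), 18 with array weights, and 0 to 8 when each array was left out (8 without array B, 0 without each other array). No label pairs the arrays. Deviations from the group means correlated over all genes at 0.615 (A-D), 0.665 (B-E) and 0.440 (C-F). Every other combination of a siCTRL and a siCCAR2 array gave -0.527 (B-D) to 0.143 (C-D). Over the members alone the values were 0.451 (A-D), 0.519 (B-E) and 0.178 (C-F), and -0.529 (B-D) to 0.231 (C-D) for the other combinations. The study describes its silencing experiment as done in triplicate, and a sheet of its supplement is named as paired. No source used here says which arrays belong to 1 experiment. The replicate block called 200 genes with A-D, B-E and C-F paired, 15 with A-F, B-E and C-D paired and 0 for each of the other 4 pairings. In the block of A-D, B-E and C-F, limma gave unadjusted p under 0.05 for POLR2F, GTF2F1 and ELL2, which were higher (9.09% of all genes), and TCEA1, which was lower (8.18%). Where the count over all genes was 0, unadjusted p under 0.05 were reached by 749 genes with neqc, 522 with median scaling and 709 with the brightest probe, and for those 4 pairings by 380 to 647.

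The median log2 fold change of the members was -0.12 with median scaling, where the median of all genes was -0.10 and 12 of 39 members lay above 0, and -0.04 to 0.11 when each array was left out. CCAR2 kept its direction throughout. Its adjusted p in limma was 0.102 with neqc, 0.0682 with median scaling, 0.0596 with the brightest probe and at least 0.113 for the same 4 pairings. It was 8.5e-05 with A-D, B-E and C-F paired, 0.0122 with A-F, B-E and C-D paired and 0.00546 with array weights. With the deposited table, cyclic loess, trended and robust estimation and either change of the detection filter, it was 0.0364 to 0.0486.

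Some single estimates changed sign, and the cause was not tested. With array weights this held for ELL (0.018), GTF2F2 (0.13), NELFA (-0.038), NELFCD (0.090), POLR2B (-0.085), POLR2G (0.055) and TCEB2 (0.016). With cyclic loess it held for LEO1 (0.0054). With median scaling it held for NELFA (-0.076), PAF1 (-0.095), POLR2B (-0.13), POLR2C (-0.0036), POLR2H (-0.037), POLR2J (-0.055), POLR2L (-0.015) and SUPT4H1 (-0.094). With the brightest probe it held for TCEA1 (0.0054), TCEB1 (-0.035), TCEB2 (0.057) and, outside the group, POLR1D (-0.25). Leaving out each array gave ranges across 0 for CCNT2 (-0.12 to 0.073), CDK12 (-0.24 to 0.18), ELL (-0.12 to 0.074), GTF2F2 (-0.22 to 0.024), LEO1 (-0.14 to 0.11), NELFA (-0.063 to 0.074), NELFCD (-0.15 to 0.18), PAF1 (-0.011 to 0.13) and POLR2B (-0.11 to 0.092). The same held for POLR2C (-0.017 to 0.32), POLR2G (-0.076 to 0.087), POLR2H (-0.027 to 0.16), POLR2J (-0.14 to 0.28), POLR2L (-0.054 to 0.33), SUPT16H (-0.22 to 0.011), SUPT4H1 (-0.024 to 0.11), SUPT6H (-0.057 to 0.24), TCEB2 (-0.14 to 0.041) and ZNF326 (-0.26 to 0.095).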
